A study of Danio rerio with 8 samples.

Results

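Aquaporins are channel proteins that let water, and in some branches of the family glycerol and other small solutes, cross cell membranes. Of 10 zebrafish aquaporin genes chosen by name (the lens channel genes mipa and mipb left out), 9 were found by symbol among the 31953 genes of a count table. The tenth, aqp9a, was not found under that symbol and is not analysed here. The table came from RNA sequencing of whole zebrafish (Danio rerio) embryos kept for 72 h in control medium (3 libraries), high glucose (3 libraries) or high salt (2 libraries). No source used here gives the amounts of glucose and salt, the strain or the starting age, or says that the libraries are separate clutches or dishes. The p-values therefore measure only the spread between these libraries, which may be technical. The 3 groups share the same culture label and differ, per the labels, only in treatment.

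The family falls into branches with different permeability. Classical water channels, here aqp1a.1 and aqp4, conduct mainly water. Aqp8-type channels, here aqp8a.1 and aqp8a.2, also pass ammonia and hydrogen peroxide in mammals. Aquaglyceroporins, here aqp3a, aqp3b, aqp9b and aqp10a, pass glycerol as well as water. The unorthodox branch, here aqp12, is known in mammals from pancreatic acinar cells. A fish embryo in fresh water gains water through its skin by osmosis and keeps its salts through skin ionocytes, so water channels of the skin sit at the border between embryo and medium.

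Library totals ran from 14.65 to 17.32 M counts, so that 3 counts stood for 0.171 to 0.226 CPM (counts divided by TMM-scaled library totals, a scaling that allows for differences in composition). Libraries are named by group and by the suffix of their column (1m, 2f or 2m), whose meaning was not stated. Control 1m and salt 2m stood apart, since their highest correlations with another library were 0.943 and 0.941, against 0.955 to 0.976 for the other 6. Of the 9 genes found, 7 passed the count filter and were tested; aqp3b and aqp8a.2 did not. Defining markers of the mature liver and exocrine pancreas were absent or nearly so: the liver gene fabp10a had 0 to 4 counts per library, and 14 of 15 pancreatic digestive enzyme genes had under 50 counts in every library. The liver genes ttr, gc and ahsg1 were also low, with 0 to 6, 0 to 7 and 0 to 5 counts. Other liver genes were not: tfa, which encodes transferrin, was at 666 to 1407 CPM, apobb.1 at 3013 to 6093 CPM and fgb at 69.2 to 222.6 CPM. In zebrafish larvae 72 h after fertilization fabp10a and the digestive enzyme genes are normally expressed. The cause of their low values here was not tested. The labels give 72 h as the time in culture and no starting age, and the stage behind the levels given here is therefore uncertain.

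Levels per length of gene are given as TPM (counts per gene length scaled to a common total over all genes of the table). By this measure aqp3a and aqp1a.1 led the 9 genes found, with mean levels of 63.7 and 57.7 TPM over the 8 libraries. The level of aqp12 was next (20.9 TPM), then aqp8a.1 (7.99 TPM), aqp4 (7.08 TPM), aqp10a (0.93 TPM), aqp9b (0.885 TPM), aqp8a.2 (0.146 TPM) and aqp3b (0.0827 TPM). This order covers only the chosen genes. Of the aquaporin genes outside it, aqp8b had a mean of 30.3 TPM, aqp11 10.8 TPM, aqp7 1.70 TPM, aqp10b 1.04 TPM and aqp1a.2 0.243 TPM. Neighbours in this order were often not separable. The level of aqp3a was above that of aqp1a.1 in 5 of 8 libraries, that of aqp8a.1 above aqp4 in 5 of 8, that of aqp10a above aqp9b in 4 of 8, and that of aqp8a.2 above aqp3b in 4 of 8. By contrast aqp1a.1 exceeded aqp12 in 8 of 8 libraries, and the lowest aqp12 level (16.2 TPM) lay above the highest aqp8a.1 level (13.3 TPM).

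**Figure D1:**
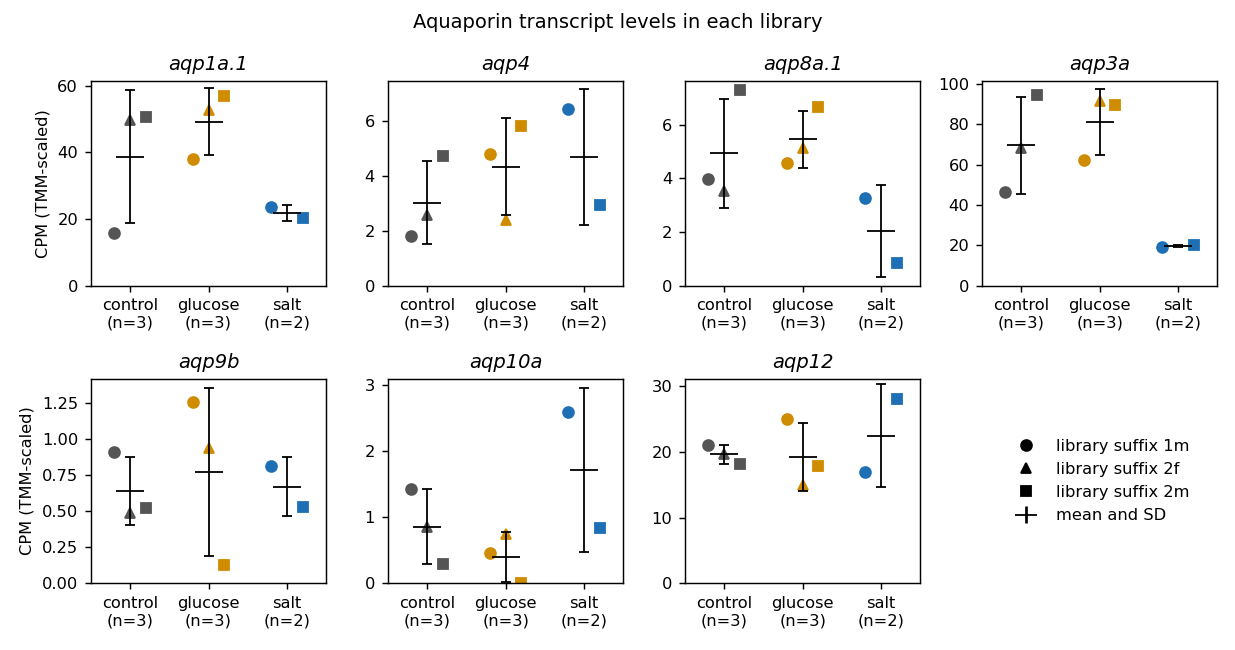
TMM-scaled CPM (vertical axis, from 0) of the 7 aquaporin genes that passed the count filter, by group (horizontal axis); each symbol is 1 library, its shape gives the suffix, and the bar is the mean with SD (n = 3, 3 and 2). Both salt libraries of aqp3a, at 19.4 and 20.2 CPM, lie below each control and glucose library, whereas the groups of aqp4, aqp9b and aqp12 overlap.

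The aquaglyceroporin gene aqp3a (ENSDARG00000003808, chromosome 5, 42406269 to 42411661, plus strand, GRCz11) was lower in high salt. Of the 7 tested members, it alone was called in any comparison by edgeR with all libraries in 1 fit. Aqp3 is the water and glycerol channel of skin and gill epithelia in fish. Its level was 46.3, 68.2 and 94.4 CPM in control 1m, 2f and 2m, 62.3, 91.8 and 89.5 CPM in glucose 1m, 2f and 2m, and 19.4 and 20.2 CPM in salt 1m and 2m. Both salt libraries were below every other library, the lowest of which was control 1m, while control and glucose overlapped. Against control (69.6 ± 24.1 CPM, SD, n = 3), salt (19.8 ± 0.612 CPM, n = 2) was 3.52-fold lower, a log2 fold change of -1.81 ± 0.31 (SE) with a 95% interval of -2.51 to -1.12 (adjusted p = 0.0193, edgeR quasi-likelihood test with Benjamini-Hochberg adjustment over 20562 genes). Against glucose (81.2 ± 16.4 CPM, n = 3) salt was 4.1-fold lower, -2.04 ± 0.32 (adjusted p = 0.013, same test). In bulk RNA, fewer cells of a type and less RNA per cell cannot be told apart.

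In the same fits 5.35% of all tested genes were called between salt and control (2.41% lower in salt) and 4.95% between salt and glucose (1.90% lower in salt). For the aquaporins the count was 1 of 7 tested members in each, aqp3a, so the share rests on a single gene. The fall against control did not pass without control 2f (adjusted p = 0.0546), without control 2m (0.0519), without salt 2m (0.16) or with only the control and salt libraries in the fit (0.084), within a range of adjusted p from 5.6e-06 to 0.16 by edgeR, DESeq2 or limma over all 18 alternatives. Its log2 fold change stayed between -2.05 and -1.53 in these 18. Against glucose it did not pass without glucose 2f (0.0704), glucose 2m (0.0607) or salt 2m (0.135), and it was lower in salt in 18 of 18 (adjusted p from 1.65e-07 to 0.135). Within a suffix, salt stood below control by -1.25 in 1m and -2.22 in 2m on the log2 CPM scale (prior count 2), and below glucose by -1.68 and -2.14.

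**Figure D2:**
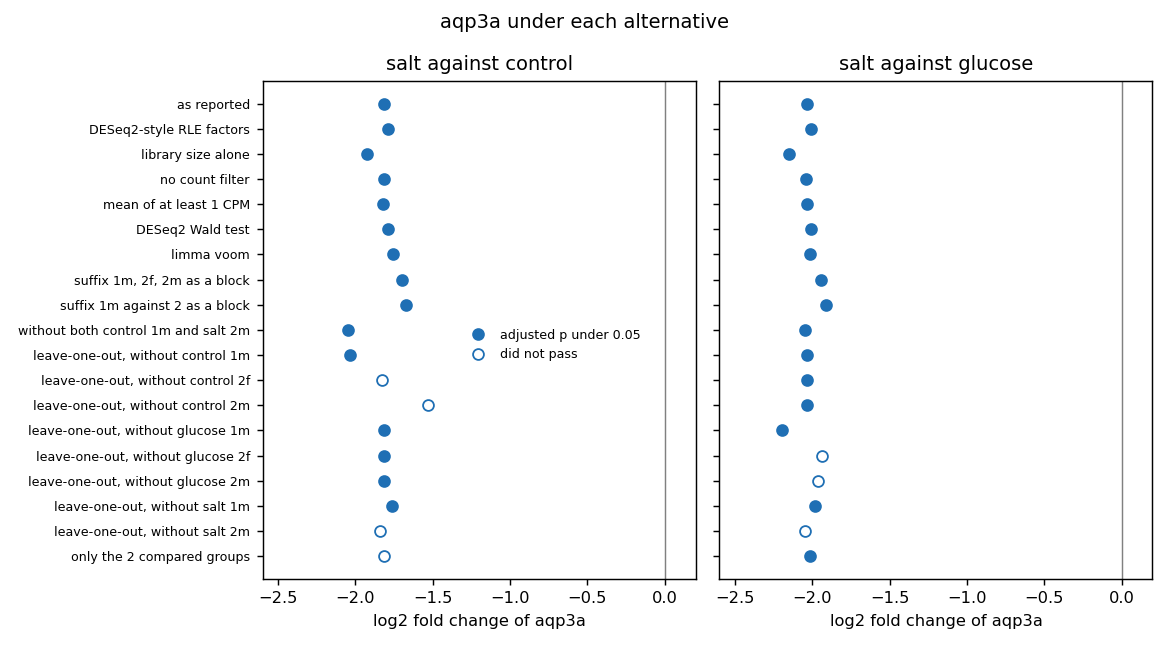
Log2 fold change of aqp3a (horizontal axis) for salt against control (left) and salt against glucose (right) as reported and under 18 alternatives each (vertical axis); filled points have an adjusted p under 0.05 and open points do not. All points lie between -2.19 and -1.53, and the open ones are 4 on the left and 3 on the right.

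The skin markers listed for epidermis (18 genes in the table) summed to 26926 to 31981 CPM in controls, 26672 to 27732 CPM in glucose and 20561 to 24904 CPM in salt, so that their sum was lowest in the salt libraries. The keratin gene krt4, at 12900 to 19920 CPM, made up the greater part of that sum, and 8 of the 18 had a log2 fold change above 0 between salt and control. None of the 18 was at 0 in any library. Between salt and control 0 of 18 rose and 1 fell (median log2 fold change -0.17, against -0.04 over all tested genes), where 5.35% of all tested genes were called. With the suffix as a block, 6 of them were called by edgeR (2 rose and 4 fell with 3 levels of suffix, 3 and 3 with 2 levels), where 12.4% and 19.0% of all tested genes were. Among those that rose was the keratin gene krt17 (1.60 and 1.75; adjusted p = 0.0248 and 0.00878, edgeR). The gene that fell without the block was cyt1, a type I keratin gene, by 1.2 ± 0.20 on the log2 scale (adjusted p = 0.0166, edgeR quasi-likelihood test). Against glucose 0 of the 18 rose and 1 fell, again cyt1 (-0.91 ± 0.20, adjusted p = 0.0333, same test), where 4.95% of all tested genes were called. Fitted with the suffix block, 2 rose and 2 fell against glucose (3 levels), or 3 rose and 1 fell (2 levels). Over all tested genes 9.03% and 14.6% were called there. Both fits had krt17 (2.07 and 2.23, adjusted p = 0.013 and 0.00413, edgeR) and cldne (0.90 and 0.91, adjusted p = 0.0279 and 0.0102, edgeR) among those that rose. The 20 ionocyte genes summed to 555 to 856 CPM in controls, 745 to 792 CPM in glucose and 781 to 1014 CPM in salt, and 0 of 19 tested passed against control (median -0.16), with 1 (3 levels) or 3 (2 levels) rising and 0 falling with the suffix as a block. Against glucose 1 fell, the sodium pump gene atp1a1a.3, at 3.40 to 12.1 CPM (-1.54 ± 0.35, adjusted p = 0.0383, edgeR), where 4.95% of all tested genes were called. With the suffix as a block 1 rose and 1 fell against glucose (3 levels), or 1 rose and 2 fell (2 levels). The gene that rose was atp1a1a.1, a sodium pump gene at 237 to 554 CPM (0.92 and 0.88, adjusted p = 0.0388 and 0.0215, edgeR). In those fits 9.03% and 14.6% of all tested genes were called. At most 1 of the 20 was at 0 in any library. The defining factors foxi3a and foxi3b were detected throughout (59 to 172 and 145 to 253 counts). The transport genes rhcgb, slc9a3.2 and slc12a10.3 were near the floor, with 0 to 5, 0 to 20 and 0 to 22 counts. The part of skin content in the aqp3a result was not tested.

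High glucose moved no aquaporin gene past the threshold. By edgeR's quasi-likelihood test 0 of 7 tested members were called between glucose and control, 0 had an unadjusted p under 0.05, and 0 were called by DESeq2 or limma voom. Over all genes 0% were called by edgeR, with 1227 at an unadjusted p under 0.05, 93 called by DESeq2 and 0 by limma voom. For aqp3a the difference was 0.22 ± 0.26 (log2 ± SE, 95% interval -0.36 to 0.80, adjusted p = 0.848 by edgeR), which leaves room for a rise of up to 0.80 or a fall of up to 0.36. The widths differed between genes: aqp12 had an interval of -0.60 to 0.55 and aqp10a one of -3.25 to 1.12. In 5 of 7 members the estimate was above 0, with a median of 0.22, against a median of -5.9e-05 over all tested genes.

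**Figure D3:**
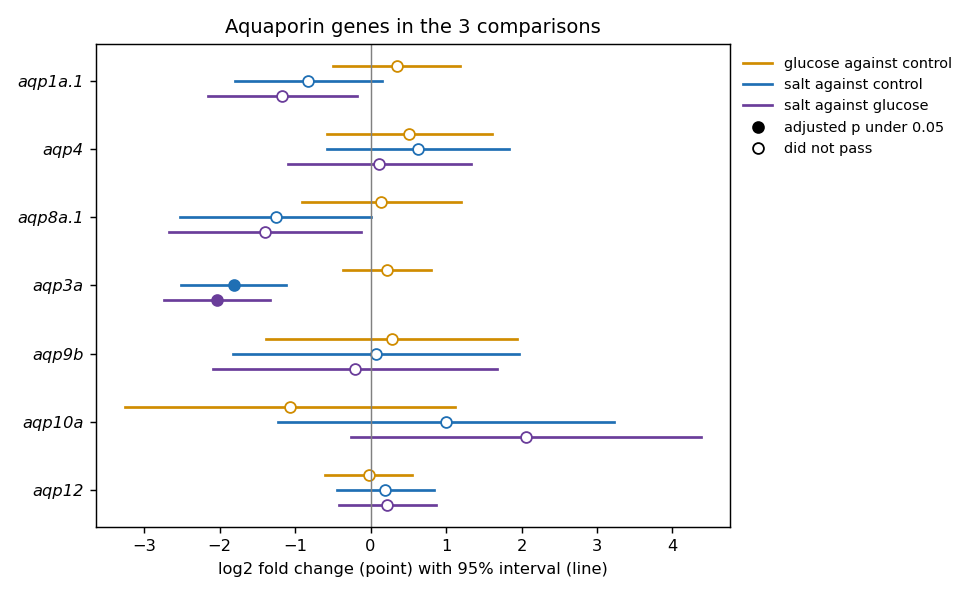
Log2 fold changes (horizontal axis; points) with 95% intervals (lines) of the 7 tested aquaporin genes (vertical axis) in the 3 comparisons, which share libraries; filled points have an adjusted p under 0.05. The 2 filled points are aqp3a in salt against control (-1.81) and against glucose (-2.04), and intervals are widest for aqp10a and aqp9b, the genes with the lowest counts.

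The classical water channel gene aqp1a.1 (ENSDARG00000023713, chromosome 2, 2895633 to 2907365, plus strand) is known in zebrafish from blood vessels and red cells. Its level was 15.8, 49.9 and 50.6 CPM in control 1m, 2f and 2m, 37.9, 52.7 and 57.1 CPM in glucose 1m, 2f and 2m, and 23.5 and 20.2 CPM in salt 1m and 2m. The salt libraries lay below the glucose libraries and below control 2f and 2m, but control 1m was lower still. The log2 fold change was 0.34 ± 0.38 for glucose against control (adjusted p = 0.838), -0.83 ± 0.44 for salt against control (0.263) and -1.17 ± 0.44 for salt against glucose (0.142), by edgeR's quasi-likelihood test. Without control 1m it fell by 1.2 in salt against control (adjusted p = 0.0254, edgeR), where 5.98% of all tested genes were called. In 17 of 18 alternatives aqp1a.1 did not pass in that comparison. Within suffix 1m, salt stood 0.57 above control, and within 2m it stood at -1.32, so the sign differed between suffixes. Against glucose aqp1a.1 passed without control 1m (adjusted p = 0.0139, edgeR) and with only the glucose and salt libraries in the fit (0.0376, edgeR). In these fits 11.5% and 5.56% of all tested genes were called. It did not pass in 16 of 18 alternatives.

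Red cell genes differed between libraries of the same group, as did aqp1a.1, though not in the same order. The 13 red cell genes summed to 715, 272 and 1992 CPM in control 1m, 2f and 2m, to 1104 to 1498 CPM in glucose, and to 792 and 231 CPM in salt 1m and 2m. At most 1 of the 13 was at 0 in a library. Control 2f thus had the lowest red cell sum of the controls and an aqp1a.1 level of 49.9 CPM, close to that of control 2m. None of the 13 passed against control in salt, where their median was -1.01 with 1 above 0. With the suffix as a block 1 fell, blvrb for biliverdin reductase (-0.89 and -0.86 with 3 and 2 levels, adjusted p = 0.0427 and 0.0248, edgeR). In salt against glucose 0 of the 13 passed by edgeR and 0 were above 0. Their median was -1.32 there, against -0.04 over all tested genes. The globin gene hbbe2 passed in that comparison by DESeq2 (-2.14, adjusted p = 0.0275), where 12.8% of all tested genes were called. The 16 endothelial genes summed to 207 CPM in control 1m and to 304 to 337 CPM in the other 7 libraries; control 1m also had the lowest aqp1a.1 level. Both salt libraries had sums within that range (323 and 334 CPM) with aqp1a.1 at 23.5 and 20.2 CPM. Of these 16, 1 rose in salt against control, the angiopoietin receptor gene tek (1.39 ± 0.33, adjusted p = 0.0423, edgeR), where 5.35% of all tested genes were called. With the suffix as a block at 3 or 2 levels 3 of the 16 rose, against 12.4% and 19.0% of all tested genes called. Their part in the aqp1a.1 values was not tested.

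The other classical channel gene, aqp4 (ENSDARG00000010565, chromosome 20, 18263772 to 18287201, plus strand), is known in mammals from the end-feet of astrocytes. Its level was 1.82, 2.56 and 4.71 CPM in control 1m, 2f and 2m, 4.79, 2.38 and 5.83 CPM in glucose 1m, 2f and 2m, and 6.45 and 2.94 CPM in salt 1m and 2m. Libraries of a group differed by as much as groups did. The log2 fold change was 0.51 ± 0.49 for glucose and 0.63 ± 0.54 for salt against control, and 0.12 ± 0.54 for salt against glucose (adjusted p = 0.811, 0.494 and 0.917, edgeR). The 14 glial genes summed to 1134 to 1309 CPM in controls, 1372 to 1575 CPM in glucose and 1395 to 1487 CPM in salt. Of the 13 tested, 1 fell in salt against control: her4.1, a Notch target gene of neural progenitors (-2.78 ± 0.63, adjusted p = 0.0393, edgeR), which was also lower than in glucose. In those fits 5.35% of all tested genes were called between salt and control and 4.95% between salt and glucose. With the suffix as a block her4.1 still fell against control, and 2 genes (3 levels) or 4 genes (2 levels) rose. They included cx43, a gap junction gene (1.01 and 1.04, adjusted p = 0.0156 and 0.0053, edgeR). Over all tested genes 12.4% (3 levels) and 19.0% (2 levels) were called with these blocks.

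Of the Aqp8-type genes, aqp8a.1 (ENSDARG00000045141, chromosome 12, 20244235 to 20251184, minus strand) had the widest spread in salt. Its level was 3.97, 3.54 and 7.27 CPM in control 1m, 2f and 2m, 4.57, 5.14 and 6.64 CPM in glucose 1m, 2f and 2m, and 3.26 and 0.83 CPM in salt 1m and 2m. In CPM both salt libraries were below all others, salt 1m by a small margin and salt 2m, with 11 counts, by a large one. In TPM salt 1m (6.162) was not below control 1m (6.156). The log2 fold change was -1.26 ± 0.57 for salt against control (adjusted p = 0.196), -1.40 ± 0.57 for salt against glucose (0.167) and 0.14 ± 0.47 for glucose against control (0.941, edgeR). Without salt 1m, the remaining salt library was assumed to vary like the other groups. In that fit aqp8a.1 was lower by 2.54 against control and by 2.68 against glucose. As it rests on 1 salt library with 11 counts, only the size is given. In 17 of 18 alternatives aqp8a.1 did not pass in either comparison. Within suffix 1m the difference from control was -0.27, and within 2m it was -2.95.

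The tandem copy aqp8a.2 (ENSDARG00000071592, chromosome 12, 20233265 to 20240187, minus strand) lies 4047 bases from aqp8a.1 in the table's coordinates. It had 6 counts in the 3 control libraries together, 6 in the 3 glucose libraries and 0 in the 2 salt libraries. Exact 95% Poisson intervals, which cover counting error only, were 2.20 to 13.1 counts for control and for glucose and 0 to 3.69 for salt. It did not pass the count filter, and no difference was detectable at this depth. How reads shared between near-identical copies were counted was not given, so values of tandem copies are uncertain to that extent.

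Groups that did not overlap in CPM were 2 of 7 members between salt and control (aqp3a and aqp8a.1, both lower in salt). There 39.4% of all tested genes had groups that did not overlap (20.6% lower in salt). Between salt and glucose they were 4 of 7 (aqp3a, aqp1a.1 and aqp8a.1 lower and aqp10a higher in salt), where 44.8% of all tested genes did not overlap (23.6% lower and 21.2% higher in salt). Between glucose and control they were 0 of 7, where the share over all tested genes was 14.8%. The median log2 fold change of the 7 members was 0.08 for salt against control (4 above 0 and 3 below) and -0.20 for salt against glucose (3 and 4), against -0.04 over all tested genes in both.

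Among the other aquaglyceroporin genes, aqp10a (ENSDARG00000007086, chromosome 16, 22373353 to 22378875, minus strand) was highest in salt 1m. AQP10 is an intestinal channel in humans. Counts were 22, 14 and 5 in control 1m, 2f and 2m, 8, 12 and 0 in glucose 1m, 2f and 2m, and 38 and 11 in salt 1m and 2m. These correspond to 0.859 ± 0.570, 0.403 ± 0.379 and 1.71 ± 1.24 CPM (SD; n = 3, 3 and 2). In CPM the salt and glucose libraries did not overlap, and salt and control did. In TPM salt 2m (0.793) lay below glucose 2f (0.812). The log2 fold change of 2.06 ± 1.04 between salt and glucose did not pass (adjusted p = 0.254, edgeR), nor did that of 1.0 ± 1.0 between salt and control (0.563) or of -1.07 ± 0.98 between glucose and control (0.802). The 18 intestinal genes in the table summed to 3771 to 4266 CPM in controls, 4126 to 4450 CPM in glucose and 3174 to 4442 CPM in salt. The apolipoprotein gene apoa1a, at 1974 to 3494 CPM, made up the greater part of that sum. Of the others, fabp2 stood at 75.8 to 433.3 CPM, while cdx1b and slc15a1b had only 0 to 8 and 2 to 17 counts. The sum is therefore no measure of intestinal content. Of 14 tested, 1 rose in salt against control, the aminopeptidase gene anpepb (3.65 ± 0.63, from 11.4 to 144 CPM, adjusted p = 0.0193, edgeR), and 0 fell, where 5.35% of all tested genes were called. Against glucose 1 of the 14 rose, again anpepb (4.08 ± 0.64, adjusted p = 0.0135, edgeR), and 0 fell, where 4.95% of all tested genes were called. The block fits that follow are against control. With the suffix as a block 2 rose and 0 fell (3 levels) or 4 rose and 1 fell (2 levels), the last lgmn, for the protease legumain (-0.82, adjusted p = 0.0257, edgeR), where 12.4% and 19.0% of all tested genes were called. The brush border gene vil1 had 0 to 24 counts per library.

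The gene aqp9b (ENSDARG00000053480, chromosome 7, 30100743 to 30118129, plus strand) belongs to the branch that takes up glycerol into the liver in mammals. It had 14, 8 and 9 counts in control 1m, 2f and 2m, 22, 15 and 2 counts in glucose 1m, 2f and 2m, and 12 and 7 counts in salt 1m and 2m. Group means of 0.641, 0.774 and 0.672 CPM lay within the spread of any group. No call was made (log2 fold change 0.28 ± 0.74, 0.08 ± 0.85 and -0.20 ± 0.84 for glucose against control, salt against control and salt against glucose; adjusted p = 0.926, 0.964 and 0.908 by edgeR). Of 15 liver genes tested, 0 passed in salt against control (median -0.08), with or without the suffix block. Over all tested genes 5.35% were called without the block, and 12.4% (3 levels) and 19.0% (2 levels) with it. Against glucose 0 passed without the block, where 4.95% of all tested genes did. With it 1 rose, uox (1.81 and 1.89, adjusted p = 0.0291 and 0.0123, edgeR), where 9.03% and 14.6% of all tested genes were called. As fabp10a, ttr, gc and ahsg1 were near 0, the list is no measure of liver content. Counts this low for aqp9b leave intervals that reach from -1.82 to 1.97 for salt against control.

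The paralogue of aqp3a, aqp3b (ENSDARG00000069518, chromosome 21, 16943505 to 16952130, plus strand), was all but undetected. It had 1 count in the control libraries together, 1 in the glucose libraries and 3 in the salt libraries, the last all in salt 2m. With 5 counts in all, against 7988 for aqp3a, it was not tested.

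The unorthodox channel gene aqp12 (ENSDARG00000043279, chromosome 22, 2857785 to 2870671, minus strand) had the narrowest range of the tested members, with its highest library 1.87 times its lowest. Its level was 21.1, 19.6 and 18.1 CPM in control 1m, 2f and 2m, 25.1, 15 and 17.9 CPM in glucose 1m, 2f and 2m, and 17 and 28.1 CPM in salt 1m and 2m. The 3 groups overlapped. Differences were -0.02 ± 0.26 for glucose and 0.20 ± 0.29 for salt against control, and 0.22 ± 0.29 for salt against glucose (95% intervals -0.60 to 0.55, -0.44 to 0.84 and -0.42 to 0.86; adjusted p = 0.982, 0.703 and 0.675, edgeR). The 18 exocrine pancreas genes in the table summed to only 9.82 to 27.6 CPM, with 3 to 6 of them at 0 in each library. Of the transcription factor genes listed, ptf1a had 15 to 137 counts per library and rbpjl 0 to 7. The cells that ptf1a reads came from are not known in whole embryos. Of the 6 pancreas genes that were tested, 0 passed in any comparison by edgeR. Over all tested genes 0% (glucose against control), 5.35% (salt against control) and 4.95% (salt against glucose) did, so 0 of 6 says little.

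**Figure D4:**
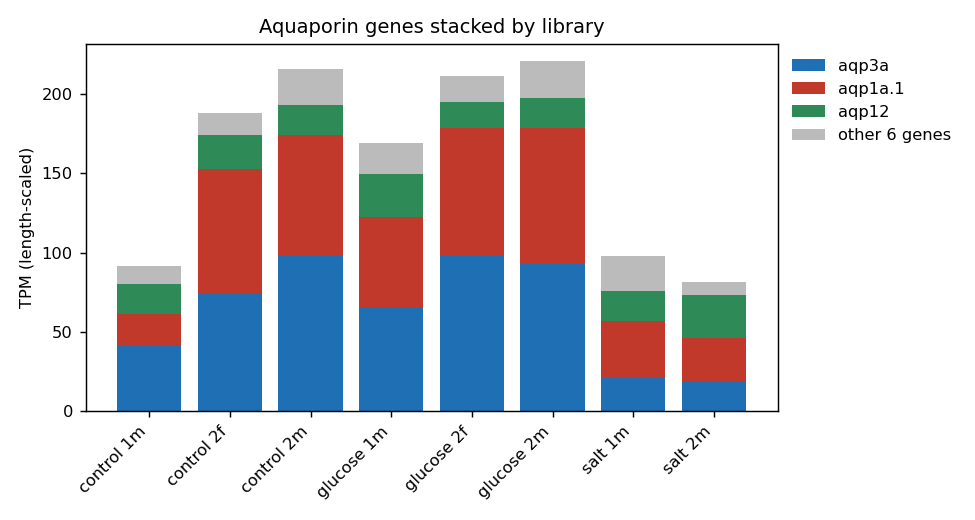
Length-scaled level (TPM, vertical axis, from 0) of the 9 aquaporin genes in each library (horizontal axis), stacked, with the 6 lesser genes joined. The aqp3a segment is 19.1 and 20.8 TPM in the salt libraries and 40.9 to 98.2 TPM in the others. The total of these 9 genes in control 1m (91.6 TPM) lies near those of salt 1m (97.9 TPM) and salt 2m (81.4 TPM).

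The aqp3a share of the total of the 9 chosen genes was lower in both salt libraries than in any other. This total leaves out the other aquaporin genes, among them aqp8b (mean 30.3 TPM) and aqp11 (10.8 TPM). Summed per length, the 9 genes came to 91.6, 188 and 216 TPM in control 1m, 2f and 2m, to 169 to 220 TPM in glucose, and to 97.9 and 81.4 TPM in salt. Control 1m was thus as low as salt in total. Of this total aqp3a made up 39.6% to 45.5% in controls, 38.7% to 46.3% in glucose, and 21.3% and 23.4% in salt 1m and 2m. The share of aqp1a.1 was 21.9% to 41.6% in controls and 37.2% and 33.7% in salt. The ratio of aqp3a to aqp1a.1, which scaling between libraries does not touch, was 0.951 to 2.04 in controls, 1.09 to 1.21 in glucose, and 0.573 and 0.695 in salt. These shares and the ratio were chosen after their values were seen and were not tested.

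Of the other aquaporin genes, 5 were in the table (aqp1a.2, aqp7, aqp8b, aqp10b and aqp11) and 4 were tested, of which 0 passed in any comparison by edgeR's quasi-likelihood test. Over all tested genes 0% (glucose against control), 5.35% (salt against control) and 4.95% (salt against glucose) passed, so 0 of 4 says little. The aquaglyceroporin gene aqp7 stood at 3.0 ± 0.70 CPM in controls, 3.74 ± 1.05 CPM in glucose and 1.38 ± 0.608 CPM in salt (SD; n = 3, 3 and 2). Salt did not overlap with either group, as held for 39.4% (control) and 44.8% (glucose) of all tested genes. The log2 fold change of aqp7 was -1.12 ± 0.46 against control (adjusted p = 0.166) and -1.44 ± 0.47 against glucose (0.0983, edgeR). The latter passed by DESeq2 (adjusted p = 0.0395) and with the 2-level suffix block (0.0416, edgeR), where 12.8% and 14.6% of all tested genes were called. In CPM aqp11 (lower in salt) and aqp10b (higher) did not overlap between salt and glucose either. For aqp11 the differences in salt were -0.45 ± 0.26 and -0.73 ± 0.26, for aqp8b -0.05 ± 0.36 and -0.29 ± 0.36, and for aqp10b -0.07 ± 0.99 and 1.64 ± 1.04 (control and glucose as the reference; adjusted p from 0.125 to 0.97). In glucose against control their log2 fold changes were 0.32 for aqp7, 0.24 for aqp8b, -1.71 for aqp10b and 0.29 for aqp11. The tandem partner of aqp1a.1, aqp1a.2, had 14 counts in all, in 5 of 8 libraries.

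Because aquaglyceroporins pass glycerol, genes of glycerol and stored fat turnover were counted beside them. Of 13 tested, 1 fell between salt and control, the lipid droplet hydrolase gene pnpla3 (-2.35 ± 0.41, from 14.7 to 2.88 CPM, adjusted p = 0.0197, edgeR), and 0 rose, where 5.35% of all tested genes were called. The median of the 13 was -0.17. With the suffix as a block at either level, 1 rose and 2 fell. Over all tested genes 12.4% (3 levels) and 19.0% (2 levels) were called with these blocks. The gene mgll for monoglyceride lipase rose (1.02 and 0.96, adjusted p = 0.0138 and 0.00762, edgeR). The lipase gene lipea fell beside pnpla3 (-1.98 and -2.00, adjusted p = 0.0373 and 0.0215, edgeR). Against glucose 1 rose, mgll (1.21 ± 0.29, adjusted p = 0.047, edgeR), and 0 fell, where 4.95% of all tested genes were called. With the block mgll rose and 3 fell (pnpla3, gpd1a and gpd1b, the last pair for glycerol phosphate dehydrogenases), where 9.03% (3 levels) and 14.6% (2 levels) of all tested genes were called. In glucose against control 0 of 13 passed. Of 15 tested pronephric (embryonic kidney) genes, 2 rose in salt against control and 0 fell, where 5.35% of all tested genes were called. The 2 were the ion channel gene trpm7 (1.09 ± 0.22, adjusted p = 0.0264, edgeR) and slc13a3, a dicarboxylate transporter gene (3.12 ± 0.71, adjusted p = 0.0402, edgeR). Against glucose 1 of the 15 rose, again trpm7 (1.25 ± 0.22, adjusted p = 0.0177, edgeR), and 0 fell, where 4.95% of all tested genes were called. The calls named from these context lists without the block, 13 calls of 9 genes by edgeR, were lost when single libraries were left out: each held in only 1 to 5 of 8 such fits, and 0 held without salt 2m. For example, tek, mgll and slc13a3 (against control) each held in 1 of 8 and trpm7 against control in 2 of 8, so that control and glucose libraries ended these calls as well.

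Over the 8 libraries, log2 CPM of aqp3a was most like that of phkg1b (Pearson r = 0.9975), lrrc39 (0.9907) and sdr16c5b (0.9899) among 13768 genes with an ordinary symbol and a mean of at least 1 CPM. The gene phkg1b encodes a catalytic subunit of phosphorylase kinase, lrrc39 a protein of the muscle sarcomere and sdr16c5b a short-chain dehydrogenase. Their levels in control, glucose and salt were 2.88, 4.51 and 0.143 CPM for phkg1b, 20.8, 23.3 and 10.23 CPM for lrrc39, and 15.4, 18.1 and 5.49 CPM for sdr16c5b. The salt level of phkg1b lay below that of 3 counts. With 8 points that share depth and group, and the 3 highest taken from so many genes, these correlations describe only these libraries. Among tested members, aqp3a had r = 0.803 with aqp8a.1 and 0.802 with aqp1a.1, and -0.665 with aqp10a and -0.437 with aqp12. For the tested aquaporin genes outside the chosen set, r was 0.917 with aqp7, 0.777 with aqp11, 0.00683 with aqp8b and -0.379 with aqp10b.

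No tested member passed the test between suffixes, and the differences that follow are estimates. With group as a term, suffix 2f and 2m stood above 1m by 0.51 ± 0.18 for aqp3a and 0.71 ± 0.28 for aqp1a.1 (log2 ± SE; adjusted p = 0.0936 and 0.132, edgeR), and 0 of 7 members were called where 8.23% of all tested genes were. In each group the 1m library had the lowest aqp3a level in CPM, though in salt only by a small margin (19.4 against 20.2 CPM). In TPM the order in salt was reversed (20.8 in 1m and 19.1 in 2m). The salt and control groups hold 1m and 2m libraries in unequal shares, since no 2f library carries the salt label among those analysed. With the suffix as a block, aqp3a was lower in salt by -1.70 (adjusted p = 0.00566, levels 1m, 2f and 2m) or -1.67 (0.00212, 1m against 2) against control by edgeR, and no other member was called, where 12.4% and 19.0% of all tested genes were.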

How the data were processed

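The authors deposited whole-number read counts for each gene in 8 libraries, without normalization. Per the submitters' processing notes, build GRCz11 was used and the named tools were featureCounts 1.5.0-p3, HISAT2 2.0.5, edgeR 3.22.5, StringTie 1.3.3b and DESeq2; order, strand setting and treatment of shared reads are not given in the sources used here, so overlapping antisense genes could not be told apart. The labels' extraction protocol describes arrays, whereas the series type and the whole-number values are those of sequencing. Columns were matched to groups by name and carried no replicate number. Coordinates and gene lengths are those of the table.

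Genes were tested with edgeR 4.0.16 (R 4.3.3; TMM, filterByExpr by group, 20562 genes, all 8 libraries in 1 quasi-likelihood fit, 5 residual degrees of freedom), with Benjamini-Hochberg adjustment over all tested genes and a threshold of 0.05. Standard errors were derived from each fold change with its F statistic. CPM used TMM-scaled totals, and TPM counts per gene length. Alternatives used DESeq2 1.42.0 and limma 3.58.1. Chi-square per degree of freedom between libraries of 1 group was 17.7 to 95.5, far above sampling noise, so none was counted as a duplicate. On simulated counts for 20562 genes, changes of 2-, 4- and 8-fold between salt and control, in 72, 63 and 65 genes, were called in 6.94%, 61.9% and 90.8% of cases. Those between glucose and control, in 78, 63 and 59 genes, were called in 10.3%, 65.1% and 89.8%. Far more genes (1101) were called for salt against control in the data. The adjusted threshold depends on how many genes change, so the salt rates need not hold there. False calls numbered 4 and 6. Changed genes were drawn only from those with a mean of at least 1 CPM, so the rates do not cover aqp9b and aqp10a. The simulated spread was the one fitted to these data.

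The 10 genes, the context lists and the tests were chosen with earlier results of these data known. Named genes were all members, the other aquaporin genes tested, up to 4 called genes of each context list, and the 3 genes most like each called member. Correlations give no p.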

Additional observations from a re-analysis of the deposited data

How the results depend on the processing

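Each of 21 values (7 genes in 3 comparisons) was recomputed under 18 alternatives, which gave 372 values: 331 kept direction and side of the threshold, 7 lost the threshold (all aqp3a in salt), 5 gained it and 29 changed sign, none of the last in a comparison where that gene was called. A mean of at least 1 CPM left out aqp9b and aqp10a. The number of aquaporin genes called ran from 0 to 2 when 1 library was left out, for salt against control as for salt against glucose, and was 0 and 2 with only the 2 compared groups in the fit. For glucose against control it was 0 under every alternative run.

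Over all genes, 1101 calls for salt against control became 2834 by DESeq2, 718 by limma voom, 2550 or 3907 with the suffix as a block (3 or 2 levels), 352 without both control 1m and salt 2m, 72 with only the 2 groups, and 50 (without salt 2m) to 2355 (without salt 1m) with 1 library left out. For salt against glucose, 1017 became 2630, 647, 1857 and 3008 by the same tools and blocks, and 59 (without glucose 2f) to 2343 (without control 1m). For glucose against control, 0 became 93 by DESeq2, 16 without a count filter, 36 or 35 with a block and 20 without both libraries. Scaling by library size alone moved the median of all genes for salt against glucose from -0.04 to -0.15, and aqp3a from -2.04 to -2.15.

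Signs that changed in glucose against control, without both control 1m and salt 2m, were those of aqp1a.1 (-0.033), aqp3a (-0.0054) and aqp12 (0.032), and by limma voom that of aqp9b (-0.12). With 1 library left out the ranges crossed 0 for aqp1a.1 (-0.028 to 0.58), aqp8a.1 (-0.047 to 0.54), aqp9b (-0.26 to 0.78) and aqp12 (-0.26 to 0.13). In salt against control the sign changed for aqp9b with the 2-level block (-0.075) and for aqp12 without both libraries (-0.14), and with 1 library left out the ranges were -0.028 to 1.1 (aqp4), -0.25 to 0.41 (aqp9b), -0.020 to 1.59 (aqp10a) and -0.20 to 0.53 (aqp12). In salt against glucose it changed for aqp4 (-0.027) and aqp9b (0.0098) with the 3-level block, for aqp9b by limma voom (0.24), and without both libraries for aqp9b (0.083) and aqp12 (-0.17). The ranges with 1 library left out were -0.53 to 0.59 (aqp4), -0.70 to 0.33 (aqp9b) and -0.17 to 0.56 (aqp12). The cause was not tested. No paired analysis was possible because the table's columns do not carry the labels' replicate numbers; the recurring suffix, whose meaning is not stated, was fitted as a block in their place, and it is not known to pair libraries. Depth limits aqp3b, aqp8a.2, aqp9b and aqp10a, which had 5 to 110 counts over all libraries.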
